A study of Homo sapiens with 26 samples.

Results

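FLAG-ZBTB24 ChIP-seq in HCT116 cells gave a list of 6173 peaks, all of which are described here. They are every region of the authors' merged list for the FLAG-ZBTB24 lines, out of 22082 regions in the deposited lists for FLAG-ZBTB24 and FLAG-DNMT3B. HCT116 is an established human colorectal cancer cell line. The FLAG lines carried, by lentivirus, ZBTB24 or DNMT3B with a FLAG tag or only the tag (FLAG-EMPTY), were kept under puromycin selection and were each grown out of a single cell. Chromatin was precipitated with the FLAG M2 antibody from FLAG-ZBTB24 lines 5, 7 and 11, FLAG-DNMT3B lines 1 and 2 and FLAG-EMPTY lines 1 and 2, with 1 input library for each. RNA-seq covered cells with a hairpin against ZBTB24 (shZBTB24, 3 libraries) or against no target (shNT, 3 libraries), FLAG-ZBTB24 lines 5 and 11 against FLAG-EMPTY lines 1 and 2, and 1 DNMT3B knockout library (3BKO) against 1 library without tag or hairpin. The peaks are therefore those of an added, tagged protein in 3 clones, beside the cells' own ZBTB24, and the merged list holds no value for a single line. No spread between lines could be given for any peak, and every interval below covers counting error only. The epithelial marker CDH1 was in the authors' deposited tables at 46.3 FPKM in shNT and 29.2 FPKM in FLAG-EMPTY cells. VIM, a mesenchymal marker, was at 0.487 FPKM in FLAG-EMPTY cells. KRT20, a marker of colon epithelium, was as low in the authors' deposited tables. It was at 0.455 FPKM in FLAG-EMPTY cells and 0.558 FPKM in the library without tag or hairpin. In the knockout rows of the authors' deposited table VIM was at 3.804 FPKM in the library without tag or hairpin and 629 FPKM in the 3BKO library (q = 0.188). The tables list only part of the genes, and no blood or endothelial marker was listed.

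ZBTB24 belongs to the BTB zinc finger proteins, in which a BTB domain for protein contacts is joined to zinc fingers that read DNA. Mutations in ZBTB24 cause ICF syndrome (immunodeficiency, centromeric instability and facial anomalies), as do mutations in the de novo DNA methyltransferase DNMT3B, in CDCA7 and in the chromatin remodeller HELLS. ZBTB24 is known to bind the promoter of CDCA7 and to keep it expressed.

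Of the 33 highest-scoring protein-coding promoters with a sequence, 7 carried the same short sequence, and these stretches are shown because they hold it upstream of the transcript start. The capitals mark CAGGACCT, an 8-base motif described for ZBTB24 in earlier work, searched on both strands. Each stretch is from the RefSeq promoter table (GRCh38.p14), read 5′ to 3′ on the strand of the gene, and ends before the transcript start.
CDCA7 (chr2:173354767-173354818, plus strand): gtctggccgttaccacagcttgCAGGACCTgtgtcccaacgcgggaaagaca
CDC40 (chr6:110180359-110180410, plus strand): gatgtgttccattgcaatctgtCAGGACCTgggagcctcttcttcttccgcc
CNPY4 (chr7:100119519-100119570, plus strand): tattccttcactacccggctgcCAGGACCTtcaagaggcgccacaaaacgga
TAF6 (chr7:100119359-100119400, minus strand): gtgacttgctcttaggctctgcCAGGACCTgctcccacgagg
PREPL, outer site (chr2:44361925-44361976, minus strand): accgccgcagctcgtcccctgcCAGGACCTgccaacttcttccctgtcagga
PREPL, inner site (chr2:44361900-44361951, minus strand): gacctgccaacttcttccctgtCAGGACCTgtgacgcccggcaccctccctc
RNF187, outer site (chr1:228487190-228487241, plus strand): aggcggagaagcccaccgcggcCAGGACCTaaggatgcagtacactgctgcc
RNF187, inner site (chr1:228487249-228487300, plus strand): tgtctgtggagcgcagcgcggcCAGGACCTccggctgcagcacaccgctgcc
ARID5B (chr10:61901614-61901665, plus strand): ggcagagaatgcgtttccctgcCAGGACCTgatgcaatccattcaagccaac

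The motif began 83 bases upstream of the CDCA7 start, 46 upstream of CDC40, 93 upstream of CNPY4 and 63 upstream of ARID5B. PREPL held it 92 and 67 bases upstream, and RNF187 held it 170 and 111 bases upstream. CNPY4 and TAF6 are transcribed away from each other, and the CNPY4 site is the same stretch of DNA that the TAF6 promoter holds on its other strand. TAF6 has a further site of its own 20 bases upstream of a listed start. RIOK2 and OSTC, also among the highest scores, held no exact match but a site that differs at 1 base, shown here with the changed site in capitals. RPL32, whose score of 48.0 lies between theirs, held no exact match either. Sites with 1 change also stood in other high-scoring promoters, among them WASF1, SNX22, PLRG1, IFIH1 and AP1S1. Their share over all promoters was not counted, so the RIOK2 and OSTC sites are examples only. Positions in a change are counted from 1 at the 5′ end of the motif. The base of the motif stands before the number and the base of the promoter after it. Shifted by 1 base and read on the other strand, the OSTC site carries C1A, the same change as at RIOK2.
RIOK2, C1A (chr5:97183295-97183346, minus strand): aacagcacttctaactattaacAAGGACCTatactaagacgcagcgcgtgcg
OSTC, A5T (chr4:108650349-108650400, plus strand): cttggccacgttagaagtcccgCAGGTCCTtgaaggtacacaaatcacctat

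Over the list as a whole, the motif was far from universal at promoters. Of 982 named genes with a transcript start within 1000 bp of a peak midpoint, 847 are protein-coding under their current RefSeq symbol. Of these, 704 (83.1%) had a promoter sequence in the table, running from 250 bases before a listed start to 50 after it. Some genes, TAF6 among them, had more than 1 listed start and so more than 1 such sequence. Sequences per gene were not compared between genes with and without a peak, and their effect on the shares was not tested. Taking non-coding genes in as well, 76.5% had a sequence, so shares are given for protein-coding genes alone. The motif stood in 50 of the 704 promoters (7.10%, 95% Wilson interval 5.43% to 9.24%), against 1.76% (1.56% to 1.98%) of 15139 protein-coding promoters in the table without a peak. Read the other way, 50 of the 316 protein-coding genes with the motif (15.8%) had a promoter peak, against 4.44% of all 15843 protein-coding genes in the table. Among the 40 highest-scoring protein-coding promoter genes, 33 had a sequence and 7 of these held the motif (21.2%, 10.7% to 37.8%). These were CDCA7, CDC40, CNPY4, TAF6, PREPL, RNF187 and ARID5B, and all 7 lay within the 19 highest places. CNPY4 and TAF6 share 1 peak and 1 site, and the interval counts them as separate genes. The share was 1.89% at places 41 to 100 (0.334% to 9.94%), 8.93% from there to place 300 (5.49% to 14.2%) and 6% beyond (4.16% to 8.59%). At this distance of 1000 bp the share did not fall steadily with score, and the intervals of the last 3 groups overlap. The low share at places 41 to 100 rested on 1 of 53 promoters. With starts within 500 bp of a peak midpoint, 648 protein-coding genes were ranked anew, so the same places hold partly other genes. The shares were then 21.2% (10.7% to 37.8%), 9.43% (5 of 53, 4.10% to 20.3%), 8.43% (5.09% to 13.7%) and 7.32% (4.84% to 10.9%). They fell at each step, but all these intervals overlap. The median score was 9.17 for promoter genes with the motif and 8.53 for those without it.

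**Figure D1:**
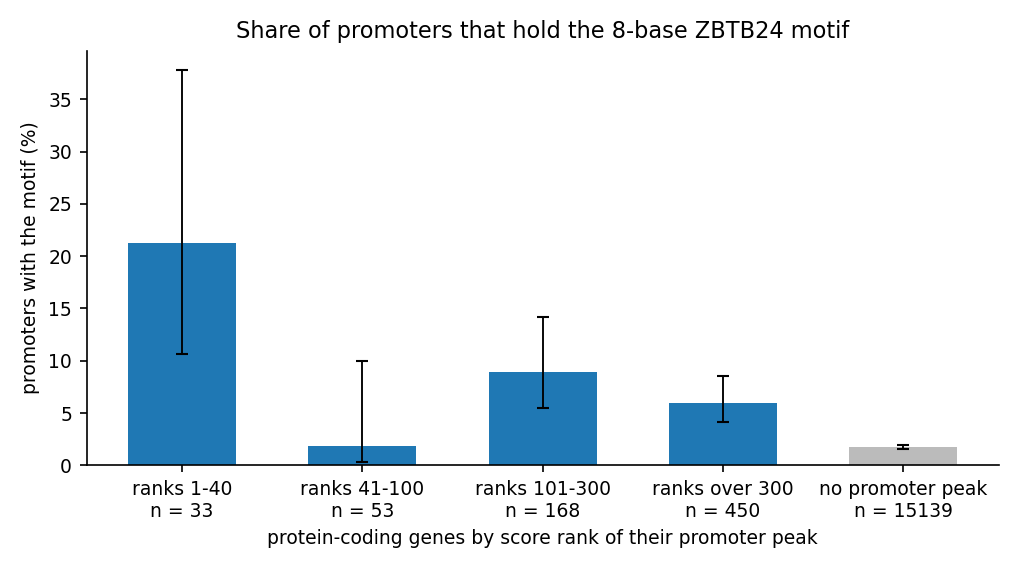
Share of protein-coding promoters that hold the 8-base motif on either strand (y axis, percent), by the score rank of the gene's promoter peak and for genes without one (x axis, n is the number of promoters with a sequence). Bars are shares and error bars are 95% Wilson intervals; the bar for ranks 1 to 40 stands at 21.2%, the bar for ranks 41 to 100 at 1.89% and the grey bar without a promoter peak at 1.76%.

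Shorter forms of the motif and common promoter elements were counted in the same way. The last 7 bases, AGGACCT, which every exact match also holds, were in 14.8% of promoters with a peak and 4.45% of those without, and in 30.3% of the 33 highest (17.4% to 47.3%). AAGATGGC, an element known to bind YY1, was in 7.81% of promoters with a peak (6.05% to 10.03%) and in 4.52% without. CCGGAAGT, an element known to bind ETS factors, was in 11.1% with a peak (8.97% to 13.6%) and in 6.78% without. The GC box GGGCGG was in 73.2% with a peak and 63.8% without. The E box CACGTG (12.4% and 10.8%), the cyclic AMP response element TGACGTCA (4.12% and 2.95%) and the AP-1 element TGAGTCA (4.97% and 5.28%) had intervals that overlap between genes with and without a peak. Mean GC content was 61.4% with a peak and 61.2% without, so the compared promoters had nearly the same base composition. Among 129 different 8-base words found in at least 5 of the 33 highest promoters, CAGGACCT had the second highest ratio to all protein-coding promoters (21.2% against 1.99%, 10.6-fold), after AAATATTA (15.2% against 1.28%, 11.8-fold). AGGACCTG, which overlaps it by 7 bases, came next at 9.60-fold. These words were ranked on the same promoters that the scores had chosen, so the ratios are a description. The motif itself was drawn in earlier work from ZBTB24 binding that may include these libraries, and its share here is not independent evidence.

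The peaks were narrow. Widths ran from 1 to 7592 bp with a median of 191 bp and quartiles of 151 and 303 bp, and the 6173 peaks together covered 1.59 Mb. DNMT3B peaks from the same cell line had a median width of 2482 bp. The most common single width was 143 bp, held by 234 peaks, while 289 peaks (4.68%) were under 100 bp and 55 (0.891%) were over 1000 bp. The widest peak, 7592 bp on chromosome 4 from 189423934 to 189431525 (hg19) within the long non-coding RNA gene LINC01060, was far outside the rest, since the next widest was 1705 bp. It stood at place 85 by score (26.6).

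Scores ran from 1.78 to 55.4 with a median of 8.26 and quartiles of 6.74 and 10.7. The score is the authors', its kind is nowhere named, and it serves below only to rank peaks within the list. High scores were few, with 248 peaks (4.02%) at 20 or more and 51 at 30 or more, and these cuts mark no gap in the scores. Wider peaks tended to score higher (Spearman's rho 0.58 over 6173 peaks, a description of values that share the same reads). The decimals of the scores had the form that means of 2 or 3 values would give. Every score was, within 0.01 or 0.02 of a step, a number of 5 decimals divided by 1, 2 or 3, with no exception. Read in this way, a mean of 3 values is needed for 2232 scores (36.2%) and a mean of 2 for 1406 (22.8%), and 2535 (41.1%) have at most 5 decimals and could be either. If all scores were such means, 2522 would have at most 5 decimals by rounding alone, close to the 2535 found. An estimated 3348 peaks (54.2%) would then carry a mean of 3 values and 2812 (45.6%) a mean of 2. The list comes from 3 lines, but whether each value belongs to 1 line is not stated. Peaks that need 3 values had a median width of 261 bp and a median score of 9.55, against 153 bp and 7.199 for those that need 2. Of the 100 highest scores, 68 need 3 values, 2 need 2 and 30 could be either. Of the 1000 lowest, 164 need 3 and 376 need 2. The running numbers in the peak names reach 12724, of which 6173 are in the list.

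**Figure D2:**
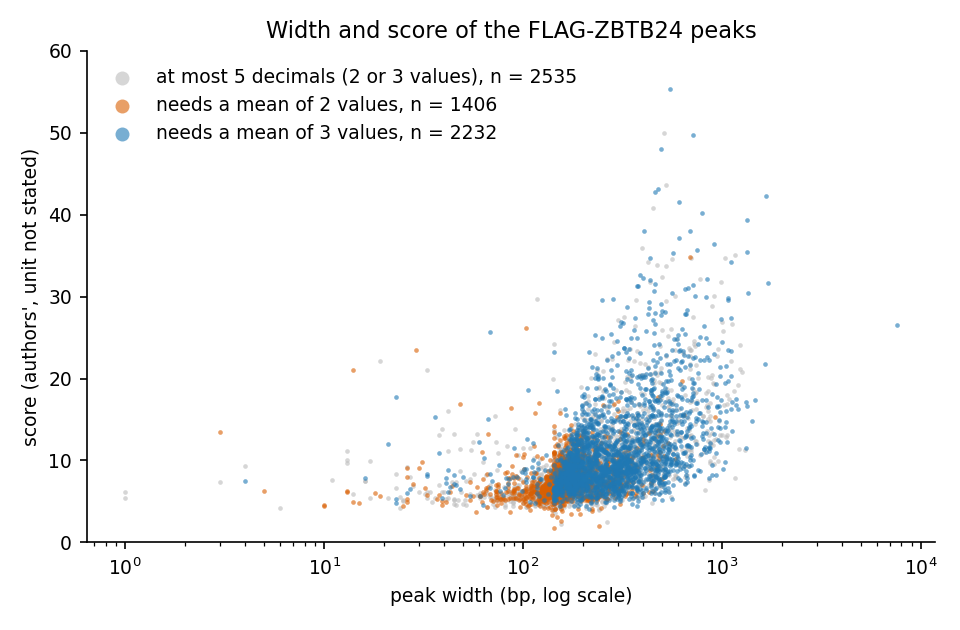
Width of each FLAG-ZBTB24 peak (x axis, bp, log scale) against its score (y axis, the authors' score, unit not stated), with 1 point per peak and colours for the number of values its decimals call for. Peaks that need a mean of 3 values (blue) reach the highest scores, up to 55.4, while those that need a mean of 2 (orange) lie mostly at low widths, with a median of 153 bp.

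ZBTB24 peaks were spread over all of chromosomes 1 to 22 with little relation to gene density. They averaged 2.21 peaks per Mb of annotated span (exact Poisson 95% interval 2.15 to 2.26). Chromosome 6 was the densest at 2.91 per Mb (2.66 to 3.18, 497 peaks) and chromosome 21 the sparsest at 1.06 per Mb (0.763 to 1.44, 41 peaks), a 2.74-fold range. Chromosomes 17, 8 and 4 followed chromosome 6 at 2.61, 2.59 and 2.53 per Mb, and their intervals overlap each other. Chromosomes 16 and 9 were low at 1.45 and 1.47 per Mb. The intervals of 5 chromosomes lay above the average, those of 6 below it, and 11 held it. These intervals take peaks as independent of each other. Since 21.8% of peaks lay in groups chained within 10 kb, the intervals may be too narrow, and this sorting is a description. Over the 22 chromosomes, peak density ran with neither transcript starts per Mb (Spearman's rho -0.05) nor DNMT3B peaks per Mb (0.03), while DNMT3B density ran with transcript starts (0.91). All 3 densities share the same spans, and the values are descriptions. Chromosome 19, with the most transcript starts per Mb, had 2.44 ZBTB24 peaks per Mb and the highest share at promoters, 47.2%. Chromosome 18, with the fewest among chromosomes 1 to 22, had 2.12 per Mb and the lowest share, 12.1%.

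Chromosome X held no peak. Its annotated span is 155 Mb, which would hold about 343 peaks at the average density, and 3 peaks there would be 0.0193 per Mb. Chromosome Y held none either. The DNMT3B list had 17 peaks on X, or 0.110 per Mb against 5.69 per Mb over chromosomes 1 to 22, and none on Y. Whether regions on X and Y were filtered from the ZBTB24 list was not tested.

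**Figure D3:**
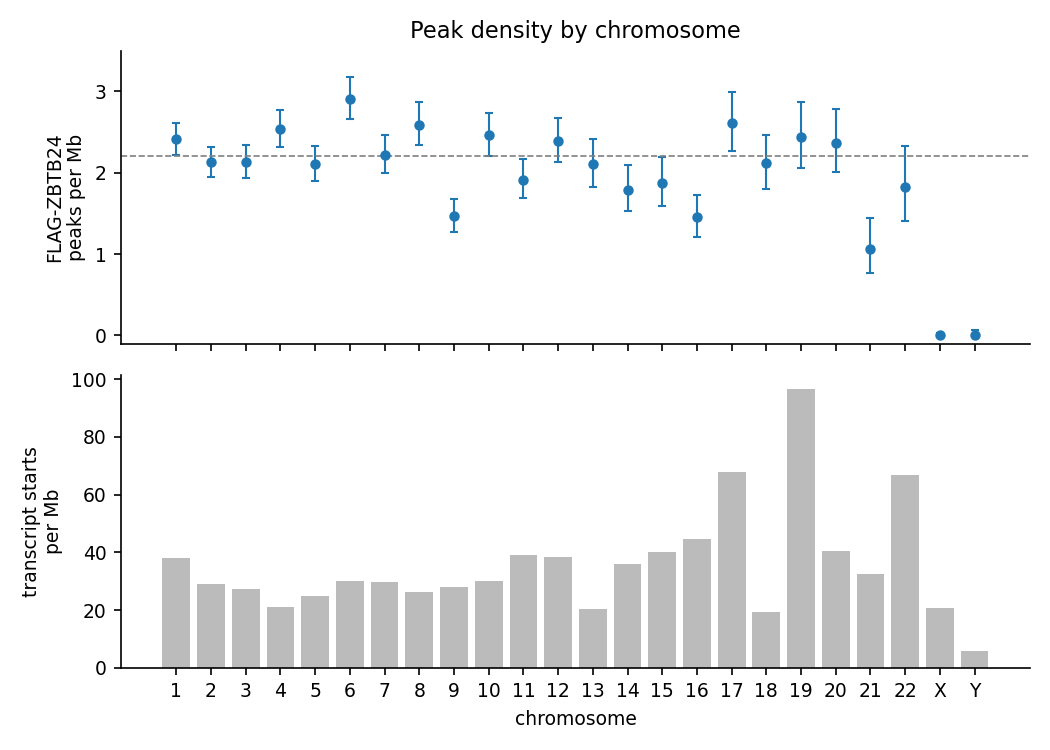
FLAG-ZBTB24 peaks per Mb of annotated span (upper panel, points with exact Poisson 95% intervals, dashed line at the average of 2.21) and transcript starts per Mb (lower panel, bars) for each chromosome (x axis). Chromosome 6 stands highest at 2.91, chromosome 21 is the lowest of the numbered chromosomes at 1.06, X and Y stand at 0, and gene-rich chromosome 19 is near the average.

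Many peaks had a close neighbour. The median distance from a peak to the next on its chromosome was 226668 bp (quartiles 64478 and 546875 bp) and the longest stretch without a peak was 23.1 Mb. At the short end, 530 of 6151 distances (8.62%) were within 1 kb, and 412 of these were within 200 bp, against 212 between 1 and 10 kb. Peaks chained within 10 kb formed 605 groups that held 1347 peaks (21.8%), of which 500 were pairs and 105 had 3 or more members. The 3 largest groups had 6 peaks each and lay far from any named gene. Transcripts without a gene name were not counted in these distances. One on chromosome 10 from 54784688 to 54790267 had scores of 7.98 to 32.1 and was 253228 bp from MBL2, a gene of the lectin complement pathway. Another on chromosome 5 from 85329978 to 85344295 was 233967 bp from NBPF22P, and the last on chromosome 4 from 90940064 to 90952191 was 64284 bp from MMRN1, which encodes a platelet matrix protein. Groups of 5 lay in ARID5B, which encodes a DNA-binding cofactor of a histone demethylase, with 2 members at promoters and scores of 6.03 to 30.4, in TCAF1, a regulator of TRP channels, with 3 at promoters, and in SCIN, which encodes the actin-severing protein scinderin, with none. These coordinates are hg19, as in the authors' files.

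Peaks were also unevenly spread over windows of the genome. Of 2810 windows of 1 Mb, 714 (25.4%) held no peak, and 63 held 8 or more, with 556 peaks between them. Counts per window varied more than their mean of 2.20 (variance over mean 1.99, and 1.56 with each 10 kb group counted once). The fullest window, at 90 to 91 Mb of chromosome 4, held 15 peaks in 7 groups, with none at a promoter and 11 over 50 kb from any transcript. Its named genes include GPRIN3, TIGD2 and MMRN1. The window at 52 to 53 Mb of chromosome 20 held 12 peaks around ZNF217, BCAS1, CYP24A1 and TSHZ2. Another 12 lay at 3 to 4 Mb of chromosome 18, which holds TGIF1, a repressor in TGF-beta signalling, and DLGAP1. The window of ZNF608 on chromosome 5 (124 to 125 Mb) and that of FRMD6, GNG2 and NID2 on chromosome 14 (52 to 53 Mb) had 11 peaks each.

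Promoters held a larger share of the peaks than of the genome, and so did the space close to genes. Of the 6173 peaks, 1142 (18.5%, 17.6% to 19.5%) had their midpoint at most 1000 bp away from an annotated transcript start, a zone that takes up 4.79% of the span, a ratio of 3.86. Another 2132 (34.5%, 33.4% to 35.7%) lay outside transcripts but within 50 kb of one (25.4% of the span, ratio 1.36). Gene bodies held 1721 (27.9%, 26.8% to 29.0%), below their 44.4% of the span (ratio 0.628), and the remaining 1178 (19.1%, 18.1% to 20.1%) lay over 50 kb from any transcript (25.4% of the span, ratio 0.752). Assembly gaps, where no peak can be called, were not taken out of the span, and their effect on these ratios was not tested. Within gene bodies, 112 of 1721 midpoints (6.51%, 5.44% to 7.77%) were in exons. Exons make up 8.17% of the whole transcribed span, which takes in the zones around starts that these peaks leave out. The shares are therefore of unlike stretches, and whether exons held fewer peaks was not tested. Median scores were 8.37 at promoters, 8.10 in gene bodies, 8.35 near genes and 8.22 beyond 50 kb.

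The share at promoters was highest at the very top of the scores and above that of the span at every rank. Of the 50 highest-scoring peaks, 21 (42.0%, 29.4% to 55.8%) lay at promoters, and of the next 50, 11 did (22%, 12.8% to 35.2%). The share was 17.8% from there to place 500 (14.3% to 21.8%), 18.4% on to place 1000 and 18.3% in the rest. Gene bodies took the opposite course, from 13.0% of the 100 highest (7.76% to 20.98%) to 28.8% of the peaks beyond place 1000 (27.6% to 30.1%).

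**Figure D4:**
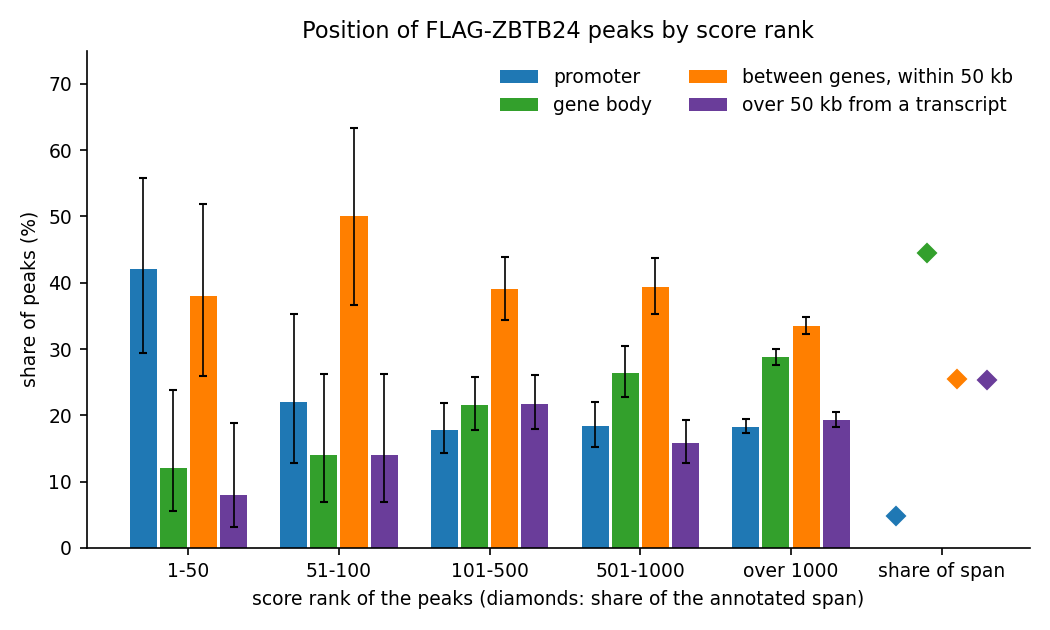
Share of FLAG-ZBTB24 peaks in each position class (y axis, percent) by score rank (x axis), with 95% Wilson intervals, and the share of the annotated span in each class as diamonds at the right. The promoter bar falls from 42.0% at ranks 1 to 50 to 18.3% beyond rank 1000, and every promoter bar is above the diamond at 4.79%.

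Around the start itself, peaks sat on either side with a small upstream excess. Of 1142 promoter peaks, 628 (54.99%) had their midpoint upstream of the nearest start, the median position was 60.5 bp upstream, and the quartiles were 299 bp upstream and 188 bp downstream. Within 250 bp of a start lay 547 of them (47.9%). Counts per 100 bp were highest from 200 to 100 bp upstream (133 peaks), dipped to 89 in the last 100 bp before the start, and were 122 and 113 in the first and next 100 bp after it. Starts on both strands stood within 1000 bp of 246 promoter peaks (21.5%, 19.3% to 24.0%), against 6.96% of the promoter span. At 233 promoter peaks (20.4%) no start belonged to a named gene.

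**Figure D5:**
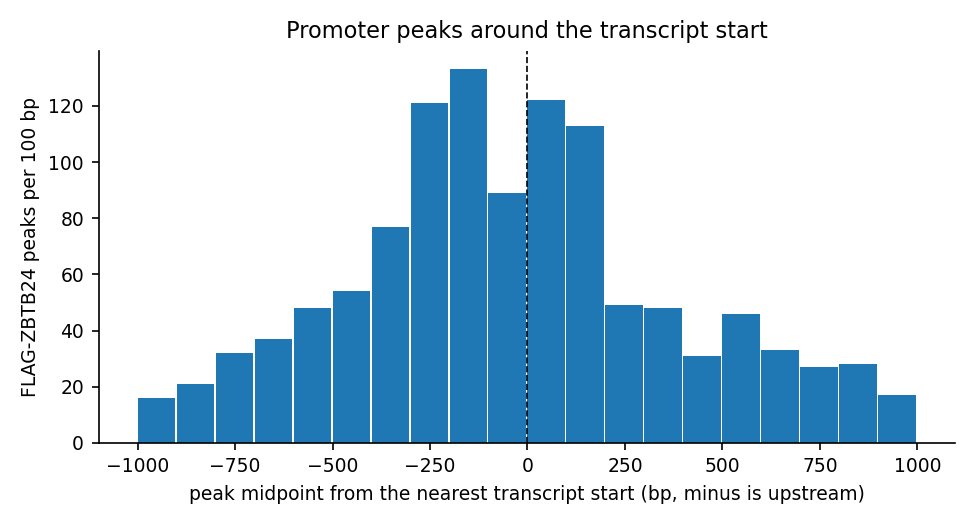
Number of FLAG-ZBTB24 promoter peaks per 100 bp (y axis) by the distance of the midpoint from the nearest transcript start (x axis, bp, minus is upstream, dashed line at the start). Counts peak at 133 between 200 and 100 bp upstream, dip to 89 just before the start and are 122 just after it.

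The 30 highest scores held 13 promoter peaks, each with a named gene, and 4 of these served starts on both strands. CDCA7, which encodes a zinc finger protein that works with the remodeller HELLS, had the highest score of the list, 55.4. It was also the one ICF gene with a pair of promoter peaks, since another with a score of 29.6 (place 55) lay on chromosome 2 from 174218809 to 174219091, 611 bp from the start. RIOK2, a kinase of small ribosomal subunit maturation, followed at 49.98. The peak shared by CDC40, a factor of the second step of splicing, and WASF1, an actin regulator, scored 49.7. RPL32, a protein of the large ribosomal subunit, stood at 48.0. CNPY4 and TAF6, a subunit of the general transcription factor TFIID, shared a peak at 43.1. OSTC, a subunit of the oligosaccharyltransferase, stood at 37.1, the shared peak of CAMKMT and PREPL at 36.4, and C22orf34 at 35.7. RNF187 and RPL32P3, a pseudogene of RPL32, both stood at 34.7. HOXB7, a homeobox gene, stood at 34.6 and IMMP2L, a mitochondrial inner membrane peptidase, at 33.8. RPL32P3 is a near copy of RPL32, and reads from either may have been split between them, which was not tested.

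The other 17 of the 30 highest peaks were not at promoters. The strongest, with a score of 43.6, lay on chromosome 6 from 137397765 to 137398289, 31710 bp from the start of the cytokine receptor gene IL20RA. A peak of 1662 bp on chromosome 3 from 164621382 to 164623043 (score 42.2) was 72944 bp from the nearest transcript, LINC01324. It belonged to a group of 4 peaks that all scored at least 20.99. Peaks nearest to LINC00473 (41.6), NKX2-3 (39.3), METAP2 (38.0), LOC100506844 (35.98), NOL4 (35.5), PLLP (35.3), LINC01320 (34.8), MIR4302 (34.7), FGD2 (34.3) and LINC01563 (33.7) also lay outside transcripts. That nearest to LINC01320 was 68038 bp from any transcript, and the others named here were within 50 kb of one. FNDC1 was the nearest named gene of 2 further peaks within 50 kb of a transcript, at 35.1 and 34.2. The remaining 3 lay in gene bodies, in TAOK3, which encodes a stress kinase (40.8), in LOC100506457 (40.2) and in LOC101927292 (38.0).

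Genes of known functions were then counted at promoter peaks, beside the share of all 26281 named genes, 3.74%, that held one. The named genes include non-coding genes and pseudogenes, while most lists hold protein-coding genes. Among the 15843 protein-coding genes with a promoter sequence, 4.44% held one. Of 5 ICF syndrome genes, 2 held one, CDCA7 and ZBTB24 itself (8.03, 514 bp upstream). The nearest peaks to DNMT3B, HELLS and UHRF1 were 94737, 143584 and 133395 bp from their starts. None of 14 genes of DNA methylation and demethylation held one (upper Wilson limit 21.5%). Of 8 reported ZBTB24 targets, 7 did (ARID4A did not), but reports of targets may rest on these same peaks, so the count is not independent evidence.

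Genes of protein synthesis and RNA processing appeared in low numbers but with some of the highest scores. All the gene lists were chosen with earlier results of these data known, so a high score within a list is not independent evidence. Apart from the ICF genes and the reported targets, mitochondrial ribosomal proteins had the largest share, 12 of 76 (15.8%, 9.27% to 25.6%). Their scores were ordinary, with a median of 8.28 against 8.51 over all promoter genes and MRPS36 (13.1), MRPS12 (12.5), MRPL51 (11.7) and MRPL13 (11.1) at the top. Splicing factors followed with 6 of 49 (12.2%, 5.73% to 24.2%), with CDC40 at 49.7, DHX15 at 11.6, SF3B1 at 8.82 and SNRPA at 8.54. The list is not complete, since PLRG1, a splicing factor outside it that was named after its value was seen, scored 28.7. Cytosolic ribosomal proteins had 5 of 79 (6.33%, 2.73% to 14.0%), with RPL32 far above RPL34 (12.5), RPL26 (12.1) and RPL7 (8.91). Ribosome biogenesis had 2 of 40, the kinases RIOK2 (49.98) and RIOK3 (13.0). TFIID had 2 of 17, TAF6 (43.1) and TBP (8.13), the TATA-binding protein, whose peak also served the proteasome gene PSMB1. Proteasome subunits had 3 of 31, PSMA3 (12.8), PSMB1 (8.13) and PSMD11 (6.84), and the oligosaccharyltransferase and translocon genes had OSTC alone of 21.

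The other families held from 2.22% to 7.50% of their members at promoter peaks, against 3.74% of all named genes. DNA replication genes had 3 of 40 (7.50%, 2.58% to 19.9%) with low scores, PRIM2 (6.24), MCM4 (6.15) and RPA2 (5.70). Interferon-stimulated genes had 3 of 51 (5.88%, 2.02% to 15.9%), the double-stranded RNA sensor genes IFIH1 (25.9) and OAS3 (14.0), and EPSTI1 (5.46). Zinc finger genes named ZNF had 20 of 567 (3.53%, 2.29% to 5.39%), with ZNF451 (23.4), ZNF204P (17.0), ZNF579 (10.7) and ZNF787 (10.3) the highest. ZNF658 and ZNF658B, and other near copies in this family, could share reads. The ZBTB family had 1 of 45, ZBTB24. Replication-dependent histone genes had 4 of 71, all of them H4 genes of the cluster on chromosome 6, HIST1H4B (8.68), HIST1H4C (7.65), HIST1H4A (7.25) and HIST1H4E (6.61).

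ZBTB24 peaks almost never overlapped DNMT3B peaks. Of 6173 ZBTB24 peaks, 5 (0.0810%, 0.0346% to 0.189%) shared at least 1 base with a DNMT3B peak, and these met 5 of the 15909 DNMT3B peaks (0.0314%), although DNMT3B peaks cover 2.05% of the span. All 5 lay in gene bodies, where 5 of 1721 is 0.291% (0.124% to 0.678%) and DNMT3B peaks cover 4.22%. They were named after their values were seen and lay in PARL, SDHA, SDHAP3, EIF3A and RAP1GAP2, with scores of 5.68, 9.18, 9.76, 6.34 and 4.50. SDHAP3 is a pseudogene of SDHA, and reads could be split between such near copies. At promoters 0 of 1142 overlapped, where 3 would be 0.263% and DNMT3B peaks cover 3.29% of promoter span. Among peaks with scores of 10.7 and above, 0 of 1544 overlapped, where 3 would be 0.194%. Whether the authors removed shared regions before deposit was not tested.

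The genes at promoter peaks were looked up in the authors' deposited expression tables, which hold 1 pooled FPKM value per group and only part of the genes. In the authors' deposited table for the knockdown, every listed locus differed by at least 0.50 on the log2 scale and 97.0% had p under 0.05. It listed 120 of the 982 promoter genes (12.2%), against 8.05 percent of all named genes. Of 118 loci with a promoter peak in the authors' deposited table, 14 were called higher at q under 0.05 (11.9%), against 12.2 percent of all 1965 listed loci. Another 10 were called lower (8.47%), against 9.82 percent of all listed loci. Both shares are near those of the whole table. At unadjusted p under 0.05 the authors' deposited table had 67 of them higher and 45 lower, against 53.5 and 43.5 percent of all listed loci. Among the 33 listed loci with a promoter peak that scored 10.7 or more, 6 were called higher (18.2%) and 6 lower (18.2%) in the authors' deposited table, against 12.2 and 9.82 percent of all listed loci.

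HOXB7 had the highest peak score among the called genes (34.6) and was at 9.48 FPKM in shNT and 20.4 FPKM in shZBTB24 cells per the authors' deposited table, a rise of 1.11 on the log2 scale (q = 0.00823). In the authors' deposited table IFIH1 (peak score 25.9) rose from 5.13 to 18.7 FPKM and OAS3 (14.0) from 6.44 to 23.3 FPKM. Per the authors' deposited table, SESN1, a stress-induced regulator of TORC1, rose from 4.79 to 9.04 FPKM, and the proteasome gene PSMA3 from 61.6 to 122 FPKM. Further rises in the authors' deposited table were at RNF43, an inhibitor of Wnt receptors (15.9 to 31.5 FPKM), B2M, the light chain of MHC class I (538 to 932 FPKM), and MCM4, a helicase subunit (6.46 to 19.5 FPKM). KLK10, FAM111B, MTERF1, PON2, ARRDC4 and ARHGAP10 also rose there, with log2 fold changes from 0.78 to 2.70 in the authors' deposited table.

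Among the falls, MSMO1, an enzyme of cholesterol synthesis (peak score 17.3), was at 54.4 and 25.2 FPKM in shNT and shZBTB24 cells per the authors' deposited table, a fold change of -1.11 on the log2 scale (q = 0.00493). In the authors' deposited table CIT, the citron kinase of cell division, fell from 8.44 to 3.605 FPKM, and NCAPD2, a condensin subunit, from 31.2 to 18.2 FPKM. CREB3L2, ATP8B3, VGF, UNC13A, ABHD10, PGM2L1 and the locus of MIR100HG also fell in the authors' deposited table, with log2 fold changes from -2.16 to -0.79. The peak scores of the 24 called loci ran from 4.05 (ARHGAP10) to 34.6 (HOXB7). The epithelial markers moved in the same table, where CDX2 was at 6.90 and 18.8 FPKM and CDH1 at 46.3 and 23.2 FPKM in shNT and shZBTB24 cells in the authors' deposited table, and their part in these values was not tested.

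Most genes under the very highest scores were not called. In the authors' deposited table for the knockdown, WASF1 (10.5 and 7.26 FPKM, q = 0.287), PREPL (9.37 and 14.2 FPKM, q = 0.148) and ARID5B (6.32 and 4.28 FPKM, q = 0.208) were listed and did not pass. CDCA7, RIOK2, CDC40, RPL32 and TAF6 were not in the knockdown rows used here, and an absent gene may have been unchanged, filtered or not tested. ZBTB24, the target of the hairpin, was not in those rows either, so its own level in the knockdown is not shown. With FLAG-ZBTB24, 107 loci with a promoter peak were in the authors' deposited table, with 109 of the 982 promoter genes (11.1%), against 7.22 percent of all named genes. Of these, 1 was called higher, the locus of ZBTB24 and MICAL1, from 17.8 to 154.6 FPKM (log2 fold change 3.12, q = 0.0192), against 0.228 percent of 1754 listed loci, and it carries the added gene itself. None was called lower in the authors' deposited table, against 0.342 percent. At unadjusted p under 0.05 the same table called 5 higher and 3 lower, against 3.48 and 6.44 percent of all its loci. Among them IFIH1 was at 6.64 and 3.25 FPKM in FLAG-EMPTY and FLAG-ZBTB24 cells (p = 0.0303, q = 0.462 in the authors' deposited table). MSMO1 was at 22.9 and 33.5 FPKM (q = 0.967) there. For the DNMT3B knockout, 1 library against 1, the authors' deposited table rows used here hold higher values only, and 1 of 108 loci with a promoter peak passed q under 0.05, OAS3 (8.29 and 150 FPKM), against 0.312 percent of all its loci. That q compares 2 libraries and not the conditions. The same rows of the authors' deposited table listed 109 of the 982 promoter genes (11.1%), against 9.09 percent of all named genes, and 4 loci had p under 0.05, against 9.36 percent. VIM, at 3.804 and 629 FPKM, and ALB, a liver marker at 0.0823 and 0.969 FPKM, were listed in the same rows of the authors' deposited table without passing (q = 0.188 and 0.683), and their part in the OAS3 value was not tested.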

How the data were processed

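Peaks were called on hg19 and the submitters' processing notes name MACS2, HISAT2, StringTie and Cufflinks, with no versions. The authors deposited 1 merged peak list per factor with 1 score per peak, whose kind is not stated. They also deposited expression tables with 1 FPKM value per group, a log2 fold change, a p-value and a q-value per locus, and an assembled annotation. Sequencing depth is unknown, and FLAG-EMPTY peaks were not analysed here. Rows of the knockout table whose label matches no sample were left out.

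A promoter peak has its midpoint within 1000 bp of any of 124615 transcript starts. Gene bodies are the rest of the transcripts, and 50 kb separates peaks near genes from distal ones. The span of a chromosome is the stretch between its outermost annotated bases. Assembly gaps within it were not taken out, and they also enter the densities, the windows and the longest stretch without a peak. Peaks were chained within 10 kb. Intervals are 95% Wilson or exact Poisson (Python 3.11.15, scipy 1.17.1, statsmodels 0.14.6). No chance placement was drawn. Functions were tested on simulated peaks. Older gene symbols were matched through RefSeq synonyms. RefSeq windows (GRCh38.p14) were joined by symbol only, never by the hg19 coordinates of the peaks.

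Named genes are those at the 30 highest scores, all loci with a promoter peak past q under 0.05 (at most 25), the 4 highest scores of each of 15 gene lists, genes at the 5 largest groups and 5 fullest windows, and the ICF genes. The peak list, gene lists and motif were chosen with earlier results of these data known. The 40 highest places used for the motif, and the limit to protein-coding genes, were set after the sequence table was seen. Some genes that the rule names are not reported here.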

Additional observations from a re-analysis of the deposited data

How the results depend on the processing

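No paired analysis was possible because the deposited files hold 1 merged peak list per factor and 1 pooled value per group, which is also why no replicate could be left out. Chromosome lengths of the reference were not run in place of annotated spans, since no genome of the build was used here. Promoters held 13.6% of peaks within 500 bp, 30.3% within 5000 bp and 14.7% from named transcripts alone, against 2.65%, 16.5% and 1.88% of the span, so the share stayed above the span in each. Gene bodies held 30.9%, 22.7% and, with scores of 10.7 or more, 25.3%. Peaks near genes held 36.4% within 500 bp, 28.0% within 5000 bp, 33.1% from named transcripts and 36.9% at scores of 10.7 or more. Distal peaks made up 25.2% with named transcripts alone. At those scores the median width was 343 bp, rho of width and score 0.41, and 15.0% of peaks were in groups, against 16.1% of all peaks chained within 1 kb and 51.1% within 100 kb. No ZBTB24 peak at those scores overlapped DNMT3B (0%).

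Within 5000 bp, 5.94% of named genes and 13.3% of ZBTB genes held a peak. With scores of 10.7 or more alone, 0.970% of named genes did, and splicing factors fell to 4.08%, mitochondrial ribosomal proteins to 5.26%, proteasome subunits to 3.23%, ZNF genes to 0.353% and replication, ZBTB and histone genes to 0%. The 6-base cores CAGGAC and AGGACC stood in 42.4% and 51.5% of the 33 highest promoters, against 23.9% and 20.3% of all protein-coding promoters. At unadjusted p under 0.05, the authors' deposited tables gave 67 higher and 45 lower of 118 loci for the knockdown (56.8% and 38.1%, against 53.5% and 43.5% of all listed loci), 5 and 3 for FLAG-ZBTB24 and 4 higher for the knockout. Within 5000 bp, 18 of 165 loci (10.9%) were lower in the knockdown, against 9.82% of all listed loci. Scores of 10.7 or more gave 6 higher and 6 lower of 33 (18.2% each, against 12.2% and 9.82%), and 0 higher of 40 for FLAG-ZBTB24. Motif counts in the score groups below the first were not part of this comparison. The count at places 41 to 100 was 1 of 53 promoters, and 5 of 53 when genes were ranked anew with starts within 500 bp. No other alternative moved a compared share outside its interval or a compared count by more than 1.5 times.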
